A study of Mus musculus with 22 samples.

Results

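A set of 10 neuropeptide and granin genes was followed in the hippocampus contralateral to a kainate injection: the granin family precursors Vgf and Scg2, the opioid precursors Penk and Pdyn, and the precursors of somatostatin (Sst), cholecystokinin (Cck), vasoactive intestinal peptide (Vip), tachykinins (Tac1), corticotropin-releasing hormone (Crh) and neurotensin (Nts). They were chosen by name, each symbol matching 1 Ensembl gene, and make up 10 of the 53379 genes in the count table. All 10 were among the 40714 genes that passed the filter on low counts.

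Neuropeptides are cut from larger precursors in the secretory pathway, packed into dense core vesicles and released upon sustained firing to act on G protein-coupled receptors. Granins are acidic proteins of the same vesicles that help to form them and are themselves cut into peptides. In the hippocampus, Sst, Vip and much of Cck are made by GABAergic interneurons, and Pdyn and Penk in granule cells of the dentate gyrus, while Vgf and Scg2 are made broadly by neurons and are known as genes that respond to activity.

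RNA was sequenced from sorted nuclei of left hippocampi of adult male C57/BL6N mice, acquired at 8 weeks of age and acclimatized for 4 weeks. Kainate, an agonist of glutamate receptors that elicits status epilepticus (70 nl, 20 mM), or saline (sham) was injected above the right hippocampus, and tissue was taken 24 h later. Flow sorting on NeuN, a protein of most neuronal nuclei, gave a NeuN+ fraction (here neurons) and a NeuN- fraction (here glia). Both treatments shared the anesthesia with medetomidine and ketamine and the opioid buprenorphine given afterwards. Kainate neurons (KLp), sham neurons (SLp) and kainate glia (KLn) had 3 libraries each and sham glia (SLn) had 2, numbered 1 and 3. Each library is a pool of hippocampi from 4 or 2 mice, 8 mice per treatment, so p-values measure the spread between pools. One label names the right hippocampus, whereas the library names and the methods of the study give the left one.

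Total counts ranged from 12058875 to 45428465 per library. The RNA input was 1 ng, amplified in 10 PCR cycles, except for kainate glia library 2 and sham glia library 1, where 0.05 ng was amplified in 15. The sum of 8 pan-neuronal markers was 2923 to 5749 normalized CPM (a gene's share of the library's total count, scaled up to a common total with TMM factors) in the neuron libraries and 572 to 1005 in the glia libraries. The sum of 8 oligodendrocyte markers was 214 to 481 in neurons and 5021 to 39850 in glia, so both fractions carried their own markers and a smaller amount of the other's. In these bulk samples, fewer cells of a type and less RNA per cell cannot be told apart.

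The libraries numbered 1 stood apart for these genes. The library numbered 1 was the highest of its group for 9 of the 10 genes in kainate neurons, for 10 in sham neurons, for 6 in kainate glia and for 8 in sham glia. Over all genes tested the corresponding share was 35.1%, 37.7%, 32.9% and 40.7%. The summed inhibitory neuron markers were also highest in number 1 in all 4 groups, at 509 against 264 and 224 in sham neurons and at 539 against 433 and 317 in kainate neurons. Neuronal markers at large did the same in both neuron groups, with a pan-neuronal sum of 5749 against 3372 and 2923 in sham and of 5439 against 4259 and 2970 after kainate, and an excitatory sum of 4659 against at most 2748 in sham and of 4017 against at most 3148 after kainate. In the study, RNA libraries were sequenced on either a NextSeq (single reads) or a HiSeq (paired-end reads). Which library ran on which instrument is not given here. The parts of cell composition and of the sequencing run in this were not tested. Each comparison of kainate with sham is therefore given for the group means and with the replicate number as a block, which compares libraries of the same number. No label says what a number shares between the treatments, and the pairing was read from these same counts.

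**Figure D1:**
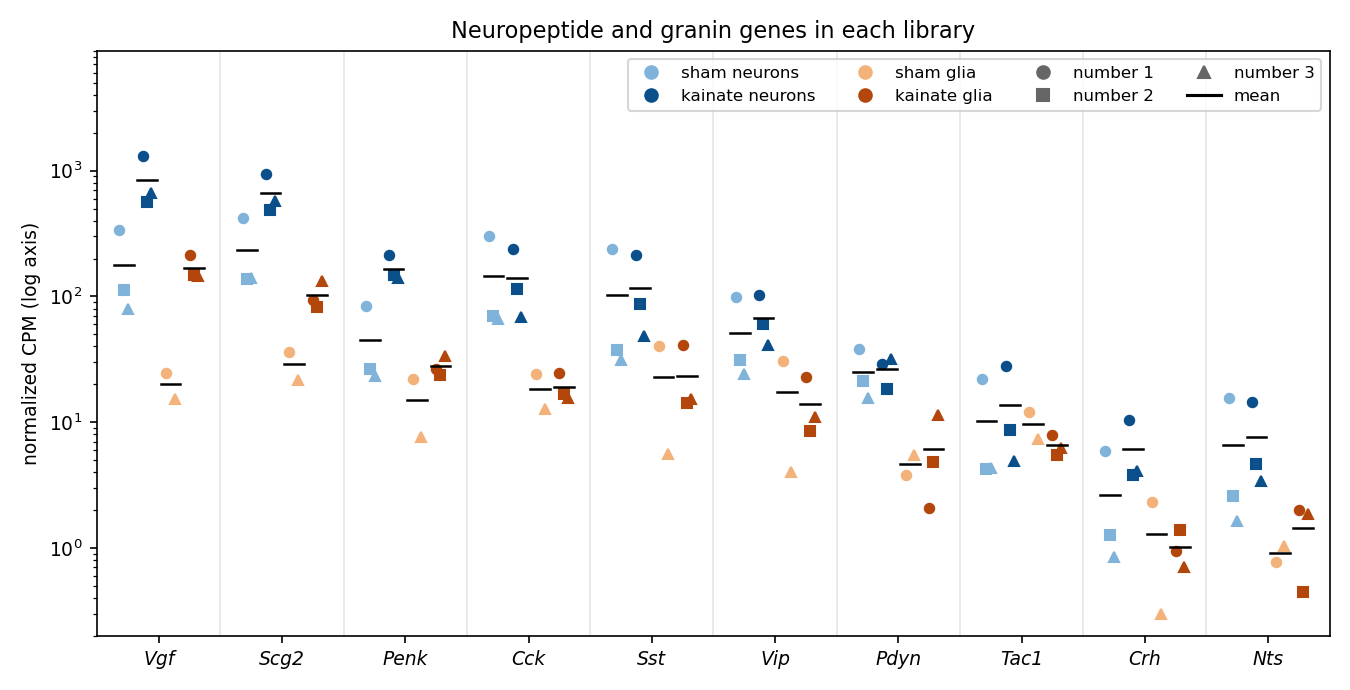
Normalized CPM (log axis) of the 10 genes in each of the 11 libraries, with the symbol giving the replicate number and the black line the group mean. All kainate libraries of Vgf, Scg2 and Penk lie above all sham libraries of the same fraction, and libraries numbered 1 (circles) are often the highest.

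Promoter sequences were available for part of the genes. RefSeq promoter windows (250 bases before the start and 50 bases from it on, GRCm38.p6) matched 7 of the 10 genes with 8 windows, and Penk, Crh and Vgf were not among them. The windows were searched on both strands for the cAMP response element TGACGTCA, the palindrome to which the activity-dependent factor CREB binds, and for its half-site TGACG, which every full element contains. The full element was found in Scg2 and Sst, against 1.79% of 32851 promoter windows. The half-site was found in 6 of the 7 genes (Scg2, Sst, Cck, Vip, Tac1 and Nts), against 20.8% of all windows. Both full matches and the half-sites of Cck and Vip are shown, 5′ to 3′ on the strand of the gene, with the match in capitals:
Scg2 (chr1:79440076-79440105, minus strand, match from base -68): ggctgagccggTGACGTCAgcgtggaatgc
Sst (chr16:23890874-23890903, minus strand, match from base -48): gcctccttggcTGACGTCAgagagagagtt
Cck (chr9:121495724-121495753, minus strand, match from base -47): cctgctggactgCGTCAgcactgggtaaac
Vip (chr10:5639127-5639156, plus strand, match from base -79): ggatcactactgTGACGtctttcggggagc
Positions count from the RefSeq start. The GENCODE annotation starts Scg2 94 bases and Sst 114 bases further upstream, so both stretches lie inside the annotated genes, and it starts Cck and Vip at the same base as RefSeq. A match is a stretch of letters and not a measured binding site. The kainate values of Scg2 and Sst, which share the full element, are given below, and a test of Scg2 against Sst was not run.

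Vgf encodes a secreted precursor of several peptides and lies at chr5:137026392-137033351 (mm10, plus strand). In neurons its level was 1307, 560.2 and 664 normalized CPM in kainate libraries 1, 2 and 3, and 340.3, 113 and 79.3 in sham libraries 1, 2 and 3. In glia it was 212, 148 and 146 in the kainate libraries, and 24.7 and 15.2 in sham libraries 1 and 3. The lowest kainate library lay above the highest sham library in both fractions. Between libraries of the same number, kainate was 3.84, 4.96 and 8.37 times sham in neurons and 8.58 and 9.64 times sham in glia.

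Scg2 encodes secretogranin II, the precursor of secretoneurin, and lies at chr1:79434669-79440120 on the minus strand. Its level in neurons was 939, 488 and 573 normalized CPM in the kainate libraries and 420.3, 136 and 139 in the sham libraries. In glia it was 93.5, 82.3 and 132 in the kainate libraries and 36.0 and 21.7 in the sham libraries. As for Vgf, the groups did not overlap in either fraction, and in neurons kainate was 2.23, 3.58 and 4.12 times the sham library of the same number. In glia these ratios were 2.59 and 6.11.

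Penk encodes proenkephalin, the precursor of the enkephalins, which act on delta and mu opioid receptors. It lies at chr4:4133531-4138819 on the minus strand, and part of its exons overlaps A830012C17Rik on the other strand, whose reads cannot be told apart from those of Penk if strand was not used in counting. In neurons the kainate libraries held 212, 147 and 141 normalized CPM of Penk, and the sham libraries 84.1, 26.7 and 23.1. In glia, levels of 26.5, 23.8 and 33.4 were measured after kainate and of 22.1 and 7.64 in sham. The groups were apart in both fractions, but in glia only narrowly. The ratios at the same number were 2.52, 5.52 and 6.09 in neurons and 1.197 and 4.38 in glia.

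Crh, the stress peptide that in the hippocampus comes mainly from interneurons, lies at chr3:19693401-19695396 on the minus strand and was among the least abundant of these genes. Its neuronal level was 10.3, 3.80 and 4.10 normalized CPM after kainate and 5.84, 1.26 and 0.838 in sham, on raw counts of 26 to 149. The groups overlapped, since sham library 1 lay above kainate libraries 2 and 3, whereas kainate was 1.77, 3.01 and 4.89 times sham at the same number. In glia the level was 0.941, 1.39 and 0.703 after kainate and 2.30 and 0.298 in sham, on raw counts of 6 to 41, and the same-number ratios of 0.409 and 2.36 pointed in opposite directions.

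In neurons, none of the 10 genes passed the FDR threshold of 0.25 used in the study when the group means were compared (edgeR's quasi-likelihood test, Benjamini-Hochberg adjusted over all genes tested), where 0.157% of all genes were called higher and 0.00737% lower. Vgf, Penk and Scg2 (3 of the 10) had an unadjusted p below 0.05, all of them higher after kainate, and DESeq2 called the same 3 genes higher and 0 lower, against 0.717% and 0.167% of all genes. Those 3 were also the genes whose kainate libraries all lay above all sham libraries, against 4.26% of all genes. In the fit with the replicate block, 4 genes rose and 0 fell, against 3.19% of all genes called higher and 1.9% called lower. The 4 genes were Vgf, Penk, Scg2 and Crh. At the same threshold of 0.25 the study itself listed Vgf as upregulated in neurons and in glia. It analyzed the cell types separately and tested fewer genes.

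The size of the neuronal difference was similar in both fits. Vgf differed by a log2 fold change of 2.25 (SE 0.55, adjusted p = 0.384 in edgeR) over group means and rose by 2.44 with the block (SE 0.20, adjusted p = 1.3e-13). Penk differed by 1.90 (SE 0.52, adjusted p = 0.597) and rose by 2.14 with the block (SE 0.24, adjusted p = 1.8e-09). The SE with the block comes from a fit that shares the estimate of spread among genes, and the 3 same-numbered pairs themselves varied more. Their log2 ratios ran from 1.94 to 3.06 for Vgf (SE over pairs 0.33) and from 1.33 to 2.61 for Penk (SE over pairs 0.40). Scg2 differed by 1.52 (SE 0.49, adjusted p = 1) and rose by 1.68 with the block (SE 0.20, adjusted p = 1.5e-08). Crh differed by 1.21 (SE 0.82, adjusted p = 1) and rose by 1.53 with the block (SE 0.40, adjusted p = 0.0173). Over 22 alternative settings, adjusted p ranged from 1.3e-13 to 1 for Vgf, from 1.8e-09 to 1 for Penk, from 1.5e-08 to 1 for Scg2 and from 0.0173 to 1 for Crh, with a positive difference of all 4 genes in each setting. Of the 4, Crh moved most in proportion, from 0.59 without kainate neurons library 1 to 2.52 without sham neurons library 1, and was 0.78 without sham neurons library 3. The call was reached in 9, 7, 3 and 2 of these settings.

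Leaving out the pools numbered 1 in all groups, an alternative chosen after the data were seen, gave neuronal differences of 2.59 for Vgf, 2.46 for Penk, 1.87 for Scg2 and 1.83 for Crh, and all 4 were called without a block (adjusted p = 1.9e-07, 2.7e-07, 0.000304 and 0.0448). This setting called more genes in general, 1.41% of all genes higher and 0.863% lower. Leaving out sham neurons library 1 alone gave 3.14 for Vgf and 2.74 for Penk (adjusted p = 0.167 and 0.174), against 0.111% of all genes called higher. Leaving out sham glia library 1 or 3 also brought Vgf and Penk below the threshold, where 0.344% and 0.375% of all genes were called higher. Calls over group means thus turned on single libraries.

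In glia, 0 of the 10 genes were called over group means, where 0.0933% of all genes were called higher and 0.00737% lower. Vgf and Scg2, 2 genes, had an unadjusted p below 0.05 in edgeR and were also the 2 that DESeq2 called higher, against 0.469% of all genes called higher and 0.155% called lower by it. All kainate glia libraries lay above all sham glia libraries for 3 genes, Vgf, Scg2 and Penk, against 4.7% of all genes. With the replicate block these 3 genes rose and 0 fell, against 2.93% of all genes called higher and 2.86% called lower. In this fit kainate glia library 2 has no partner and adds nothing to the difference.

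Vgf showed the largest glial difference of the 10 genes in both fits, at 3.08 over group means (SE 0.68, edgeR adjusted p = 0.352) and 3.18 with the block (SE 0.25, adjusted p = 8.6e-14). Scg2 differed by 1.83 (SE 0.58, adjusted p = 1) and rose by 1.99 with the block (SE 0.25, adjusted p = 1.3e-07). Penk differed by 0.91 (SE 0.58, adjusted p = 1) and rose by 1.18 with the block (SE 0.30, adjusted p = 0.0129). The 2 glial pairs of Penk lay far apart, at log2 ratios of 0.26 and 2.13, and those of Scg2 at 1.38 and 2.61. Over the settings glial Penk ran from 0.32 without sham glia library 3, below the median of 0.76 over all genes in that fit, to 1.99 without both libraries made from 0.05 ng of RNA. Glial adjusted p ranged over the 22 alternative settings from 8.6e-14 to 1.00 for Vgf, from 1.3e-07 to 1 for Scg2 and from 0.0129 to 1 for Penk, and 7, 3 and 2 of the settings made the call. Without the pools numbered 1 the glial differences were 3.29, 2.32 and 1.92, all called (adjusted p = 8.0e-06, 0.00293 and 0.0228), with 1 sham glia library left and 0.954% of all genes called higher and 0.129% lower. Leaving out sham neurons library 1 alone brought Vgf below the threshold at 3.08 (adjusted p = 0.106), against 0.108% of all genes called higher. Without sham glia library 3 Vgf was at 2.76 (adjusted p = 0.236), but 5.53% of all genes were then called higher and 1.06% lower, and the median over all genes moved from 0.02 to 0.76.

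**Figure D2:**
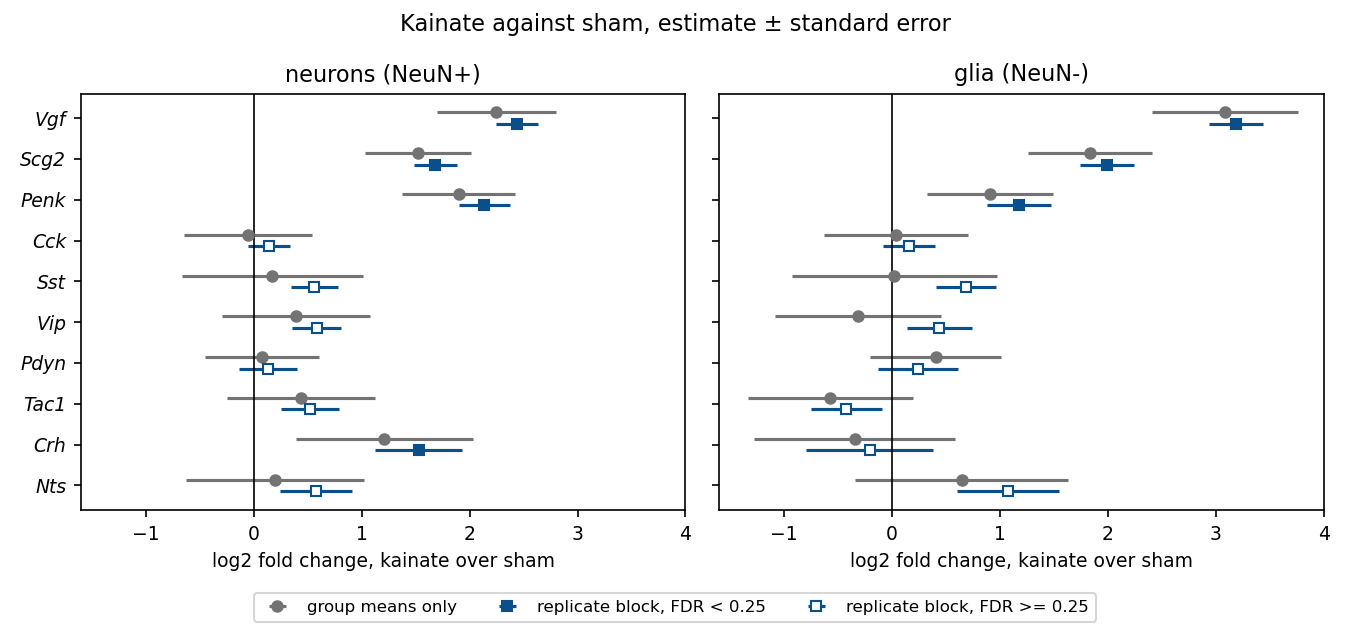
Log2 fold change of kainate over sham with its standard error for the 10 genes in neurons (left) and glia (right), over group means (grey circles) and with the replicate number as a block (blue squares, filled where the adjusted p was below 0.25). Vgf, Scg2 and Penk have filled squares in both fractions and Crh in neurons, and the block fit has the shorter error bars.

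The kainate difference was not shown to vary between neurons and glia for any of these genes. The difference of differences was called for 0 of the 10 genes over group means, where 0 had an unadjusted p below 0.05 and DESeq2 called 0. It was also called for 0 of the 10 with the replicate block within cell types or with the pool as a block. Among all genes, 0.00246% were called over group means and 1.94% with the block within cell types. The neuronal minus the glial log2 fold change was -0.83 for Vgf (SE 0.80), -0.31 for Scg2 (SE 0.72), 0.99 for Penk (SE 0.76) and 1.56 for Crh (SE 1.23). With the block the lowest adjusted p were 0.446 for Penk, at 0.96, and 0.477 for Vgf, at -0.75. Crh, called in neurons and not in glia with the block, had an adjusted p of 0.522 for the difference itself.

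The other 6 genes were not called for kainate in either fraction, over group means or with the block. Sst encodes somatostatin, the peptide of dendrite-targeting interneurons (chr16:23889573-23890958, minus strand), and was measured at 213, 86.4 and 48.7 normalized CPM in kainate neurons and at 240.4, 37.3 and 31.1 in sham neurons. In glia its level was 40.8, 14.2 and 15.3 after kainate and 40.4 and 5.60 in sham. Library 1 was the highest in all 4 groups, and kainate and sham ranges overlapped throughout. The neuronal log2 fold change was 0.17 (SE 0.84) and with the block 0.56 (SE 0.22), with an adjusted p of 0.251 that lay just above the threshold. The glial values were 0.02 (SE 0.95) and, with the block, 0.69 (SE 0.28, adjusted p = 0.271).

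Cck encodes cholecystokinin, made by basket cells and by some pyramidal cells (chr9:121489824-121495694, minus strand). It held 238, 115 and 69.0 normalized CPM in kainate neurons and 301, 69.6 and 66.6 in sham neurons, and 24.7, 16.7 and 15.5 in kainate glia against 24.4 and 12.6 in sham glia. The log2 fold change was -0.05 (SE 0.59) in neurons and 0.04 (SE 0.67) in glia. With the block it was 0.14 (SE 0.19) in neurons and 0.16 (SE 0.24) in glia.

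Vip encodes vasoactive intestinal peptide, found in interneurons that mainly inhibit other interneurons (chr10:5639218-5647617, plus strand). Kainate neurons held 102, 60.4 and 40.9 normalized CPM and sham neurons 99.3, 31.1 and 24.2. Kainate glia held 22.6, 8.45 and 10.9 and sham glia 30.8 and 4.02. The ranges overlapped in both fractions. In neurons the log2 fold change was 0.40 (SE 0.69) and with the block 0.59 (SE 0.23, adjusted p = 0.258). In glia it was -0.32 (SE 0.77) and with the block 0.44 (SE 0.30), so that its sign differed between the fits.

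Pdyn encodes prodynorphin, whose dynorphin peptides act on kappa opioid receptors (chr2:129686565-129699844, minus strand). Its neuronal levels were 28.9, 18.3 and 31.8 normalized CPM after kainate and 38.1, 21.2 and 15.6 in sham. Pdyn thus had overlapping groups in neurons, with log2 fold changes of 0.08 (SE 0.53) and of 0.13 with the block (SE 0.27), whereas Penk rose with the block. In glia the levels were 2.07, 4.78 and 11.4 after kainate and 3.77 and 5.45 in sham, and the log2 fold change was 0.41 (SE 0.61). A test of Penk against Pdyn was not run.

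Tac1 encodes the precursor of substance P and neurokinin A (chr6:7554879-7565834, plus strand). Neurons held 27.8, 8.67 and 4.91 normalized CPM after kainate and 22.0, 4.22 and 4.32 in sham, and glia 7.84, 5.46 and 6.27 after kainate and 12.01 and 7.34 in sham. At the same number kainate was 1.26, 2.05 and 1.14 times sham in neurons but 0.653 and 0.854 times sham in glia. The log2 fold change was 0.44 (SE 0.69) in neurons and -0.57 (SE 0.76) in glia, and their difference was 1.01 (SE 1.03, adjusted p = 1 in edgeR).

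Nts encodes neurotensin (chr10:102481756-102490486, minus strand) and was, with Crh, the least abundant in glia, where raw counts were 12 to 66. Its level in neurons was 14.6, 4.64 and 3.42 normalized CPM after kainate and 15.6, 2.58 and 1.64 in sham. Glia held 2.01, 0.441 and 1.86 after kainate and 0.767 and 1.04 in sham. Neither fraction separated the groups. The log2 fold change was 0.20 (SE 0.82) in neurons and 0.65 (SE 0.99) in glia, and with the block 0.58 (SE 0.33) and 1.08 (SE 0.47, adjusted p = 0.360). Over all 10 genes the median log2 fold change was 0.42 in neurons and 0.22 in glia, beside medians of -0.02 and 0.02 over all genes tested.

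Markers of other cells moved with these comparisons in part. The 8 inhibitory neuron markers summed to 317 to 539 normalized CPM in kainate neurons and 224 to 509 in sham neurons. None of these markers was called over group means, and with the block 2 of 8 rose in neurons. The pan-neuronal sum was 2970 to 5439 in kainate neurons and 2923 to 5749 in sham neurons, and 0 of 8 markers were called in neurons in either fit. In glia with the block 1 of 8 pan-neuronal markers rose, Tubb3 by 0.73 (adjusted p = 0.112 in edgeR), and of the inhibitory markers Gad1 rose by 0.87 and Nxph1 fell by 0.61 (adjusted p = 0.0188 and 0.232). The excitatory neuron sum was 2025 to 4017 in kainate neurons and 2400 to 4659 in sham neurons. With the block 2 of the 8 excitatory markers fell in neurons, Camk2a by 0.80 and Calb1 by 1.16 (edgeR adjusted p = 0.00371 and 7.1e-05), and 3 of 8 fell in glia. Camk2a was at 276 to 509 in kainate neurons and 635 to 728 in sham neurons, without overlap. Rbfox3, which encodes NeuN, was 0.788, 1.28 and 0.870 times its sham level in neurons at the same number, without one direction. Among markers of striatum, a region rich in Penk, Pdyn and Tac1, Rgs9, which encodes a regulator of G protein signalling, was at 79.95 ± 10.8 in kainate and 43.4 ± 2.3 in sham neurons (SD, n = 3 each), without overlap. It rose by 0.88 with the block (adjusted p = 0.00288 in edgeR), and DESeq2 called it (adjusted p = 0.119). Drd2, Adora2a and Ppp1r1b had overlapping groups, with Drd2 at 2.40 ± 0.23 and 2.42 ± 0.29. The 4 choroid plexus markers summed to 39.2 to 81.0 in kainate neurons and 35.1 to 43.8 in sham neurons, and 1 of 4 rose there with the block. In glia the same markers summed to 28.6 to 97.5 after kainate and 20.9 to 23.8 in sham, without overlap, and 2 of 4 rose with the block. The 8 astrocyte markers summed to 284 to 439 in kainate neurons and 204 to 277 in sham neurons, without overlap, and with the block 4 of 8 rose and 2 fell there. Gfap, the filament protein of reactive astrocytes, rose by 1.78 in neurons and by 1.78 in glia with the block (edgeR adjusted p = 3.2e-08 and 2.1e-06), with 1.91 and 1.86 over group means (SE 0.53 and 0.61, adjusted p = 0.617 and 1). In glia 1 of 8 astrocyte markers rose and 5 fell with the block, 4 of 8 oligodendrocyte markers fell, and 5 of 5 markers of their precursors fell, with sums that overlapped between the groups for all 3 lists. The astrocyte sum in glia was 664 to 3549 after kainate and 1232 to 4748 in sham, that of oligodendrocytes 5021 to 27960 and 8879 to 39850, and that of precursors 351 to 1691 and 1064 to 3438. None of these markers was called over group means by edgeR, and DESeq2 called Gfap higher in neurons and in glia (adjusted p = 0.0435 and 0.249). Of 8 microglia markers, 7 had a negative log2 fold change in glia and 2 fell with the block, with sums of 669 to 1909 after kainate and 669 to 3601 in sham. P2ry12, a purinergic receptor gene of microglia, was the marker of this list that DESeq2 called lower in glia (-2.61, adjusted p = 0.0275). In neurons 1 of the 8 rose and 1 fell with the block. The endothelial and pericyte lists had 0 genes called in either fraction. No marker of these lists was at 0 in all libraries, and the part of such cells in the values of Vgf, Scg2, Penk and Crh was not tested.

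Levels were compared between genes per kilobase of exon. In sham neurons the order of the mean normalized CPM per kilobase was Sst (143), Cck (112), Scg2 (92.2), Vgf (59.7), Penk (27.3), Vip (15.2), Pdyn (8.64), Nts (5.29), Tac1 (3.00) and Crh (2.01). Every neighbour in this order had a range over the 3 libraries that overlapped with the next. In kainate neurons the order began with Vgf (284) and Scg2 (265), followed by Sst (161), Cck (108), Penk (102), Vip (19.9), Pdyn (9.12), Nts (6.05), Crh (4.599) and Tac1 (4.06). Here Penk (86.0 to 130) did not overlap with Vip (12.01 to 30.01), nor Vip with Pdyn (6.32 to 11.03), and the other neighbours overlapped. Vgf and Scg2 held the first 2 places in each of the 3 kainate neuron libraries, but Vgf was above Scg2 in library 1 only (440 against 373), with 188 against 194 in library 2 and 223 against 228 in library 3. Penk was likewise below Cck in library 1 (130 against 182) and above it in libraries 2 and 3 (90.02 against 88.0 and 86.0 against 52.8). The sham order rested on library 1, where Sst was at 333, Cck at 231 and Scg2 at 167. In sham libraries 2 and 3 Scg2 was at 54.2 and 55.4, Cck at 53.3 and 51.0 and Sst at 51.7 and 43.2.

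In sham glia the order per kilobase was Sst (31.9), Cck (14.2), Scg2 (11.5), Penk (9.10), Vgf (6.71), Vip (5.12), Tac1 (2.85), Pdyn (1.60), Crh (0.984) and Nts (0.724), with Sst at 56.02 and 7.77 in its 2 libraries. In kainate glia it was Vgf (56.8), Scg2 (40.8), Sst (32.4), Penk (17.1), Cck (14.6), Vip (4.12), Pdyn (2.11), Tac1 (1.92), Nts (1.15) and Crh (0.766). The kainate glia level of Vgf per kilobase, 49.2 to 71.4, lay within the range of sham neurons, 26.7 to 115.

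Comparison of the fractions within a treatment showed where the transcripts were. In sham hippocampi 6 of the 10 genes were called higher in neurons than in glia over group means, against 9.11% of all genes called higher in neurons and 7.63% called lower. These were Vgf, at a log2 fold change of 3.15 (SE 0.68, edgeR adjusted p = 0.00872), Scg2 at 3.01 (adjusted p = 0.00635), Cck at 2.98 (adjusted p = 0.0224), Nts at 2.84 (adjusted p = 0.141), Pdyn at 2.43 (adjusted p = 0.0320) and Penk at 1.59 (adjusted p = 0.150). With the pool as a block, which compares the 2 fractions of the same tissue, 9 genes were called higher and 0 lower, against 18.3% and 15.7% of all genes. This fit added Sst at 2.52 (adjusted p = 0.000648), Vip at 2.12 (adjusted p = 0.00152) and Crh at 1.397 (adjusted p = 0.139), and sham neurons library 2, without a glial partner, added nothing to it. Over 21 alternative settings adjusted p ranged from 6.5e-06 to 0.908 for Sst, from 2.2e-06 to 0.859 for Vip and from 0.0706 to 0.971 for Crh. DESeq2 called 8 of the 10 higher, against 10.8% of all genes called higher and 10.4% lower.

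Single libraries decided part of these calls. Without sham glia library 1, which was made from low RNA input, Sst, Vip and Crh were at 4.24, 3.72 and 3.14. The median over all genes was then -0.682, against -0.373 with all libraries. Without sham glia library 3, Penk was at 1.01, beside a median of 0.625 over all genes. Each of these fits has 1 sham glia library left. Without sham neurons library 1, Penk and Nts were lost at 0.74 and 1.22 (edgeR adjusted p = 0.616 and 0.651). In that fit 6.53% of all genes were called higher and 6.53% lower. Nts was not called either when both libraries of low input were left out or low input was a covariate.

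After kainate, 9 of the 10 genes were called higher in neurons over group means and 9 with the pool as a block. Among all genes 11.3% were called higher and 9.39% lower over group means, and 21.4% and 27.9% with the pool as a block. The log2 fold changes over group means were 2.89 for Cck, 2.70 for Scg2, 2.58 for Penk, 2.57 for Crh, 2.40 for Nts, 2.32 for Vgf, 2.31 for Sst, 2.28 for Vip and 2.10 for Pdyn, with adjusted p of 0.00364 (Scg2) to 0.137 (Sst). Sst was lost when kainate neurons library 1 was left out, at 1.53 (adjusted p = 0.483), or when kainate glia library 2 or 3 was. Crh and Nts were also lost without kainate neurons library 1, at 1.96 and 1.498 (adjusted p = 0.323 and 0.488), and Nts without kainate glia library 2. Without both libraries of low input, which leaves 1 sham glia library in the fit, Nts was at 1.98. The median log2 fold change of the 10 genes was 2.30 in sham and 2.36 after kainate, beside -0.37 and -0.47 over all genes tested.

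Tac1 was the exception in both treatments. It was measured at 0.07 (SE 0.77, edgeR adjusted p = 0.977) in sham and at 1.08 (SE 0.69, adjusted p = 0.416) after kainate on the log2 scale, neurons over glia. In the pool numbered 3 its glial level was above the neuronal level, at 170% in sham and 128% after kainate, whereas in the pools numbered 1 it was 54.6% and 28.2%.

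As a share of the neuronal level of the same pool, the glial level in sham pools 1 and 3 was 7.27% and 19.1% for Vgf, 8.58% and 15.6% for Scg2, and 26.3% and 33.1% for Penk. Crh was at 39.4% and 35.5%, Vip at 31.02% and 16.6%, Sst at 16.8% and 18.0% and Cck at 8.09% and 19.0%. Pdyn was at 9.90% and 35.0% and Nts at 4.92% and 63.3%, so that the order of the genes differed between the pools. The 8 pan-neuronal markers, summed, were at 17.5% and 19.6% in the same pools and at 15.6%, 21.6% and 24.6% in kainate pools 1, 2 and 3. The 8 inhibitory neuron markers were at 46.6% and 44.3% in sham and at 35.9%, 41.8% and 40.7% after kainate. After kainate Vgf was at 16.2%, 26.5% and 22.0%, Scg2 at 9.96%, 16.9% and 23.1%, and Penk at 12.5%, 16.1% and 23.8%. The shares of the 10 genes lay on both sides of that of the pan-neuronal markers, and the part of neuronal RNA in the glial differences of Vgf, Scg2 and Penk was not tested. At numbers 1 and 3, Rbfox3 was 0.905 and 1.08 times its sham level in glia and 0.788 and 0.870 times in neurons. Vgf was 8.58 and 9.64 times its sham level in glia and 3.84 and 8.37 times in neurons.

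**Figure D3:**
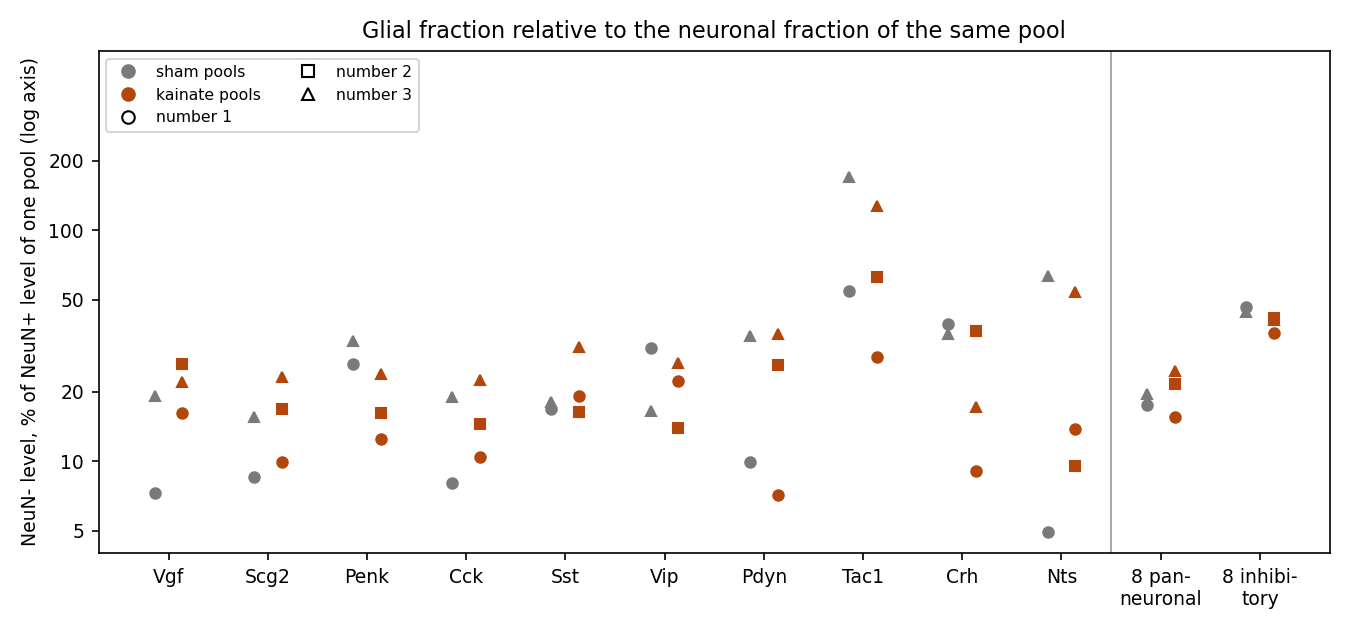
Glial level as a percentage of the neuronal level of the same pool (log axis) for the 10 genes and the summed pan-neuronal and inhibitory neuron markers, in sham pools (grey) and kainate pools (orange), with the symbol giving the pool number. The pan-neuronal sum stays between 15.6% and 24.6%, and Tac1 exceeds 100% in both pools numbered 3.

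The genes whose expression was most like that of each of the 10 were read from Pearson correlations of log2 normalized CPM over the 11 libraries, which share pools, treatment and fraction, as a description only. Vgf was most like Map2k3 (r = 0.97), Arc (r = 0.965) and Bdnf (r = 0.964), and Scg2 most like Bdnf (r = 0.991), Plcxd1 (r = 0.991) and Nrn1 (r = 0.983). Penk was most like Trnp1 (r = 0.981), Npy (r = 0.978) and Tgfb1i1 (r = 0.973). Crh was most like Lclat1 (r = 0.966), Lrpap1 (r = 0.954) and Ndufaf1 (r = 0.953). Sst and Vip shared Lnpk among their 3 most similar genes (r = 0.985 and 0.99), with Ndufaf5 (r = 0.991) and Tpi1 (r = 0.985) for Sst and Pld3 (r = 0.986) and Fam216a (r = 0.984) for Vip. Cck was most like Ccne1 (r = 0.992), Ly6h and Zc3h6 (both r = 0.991). Pdyn was most like Gm44679 (r = 0.979), Rnf207 (r = 0.972) and Gm47765 (r = 0.969), Tac1 like Gm18646 (r = 0.951), Gm13719 (r = 0.942) and Gm6794 (r = 0.94), and Nts like Nucb2 (r = 0.955), B230216N24Rik (r = 0.951) and Gm32710 (r = 0.947).

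Genes that act with these peptides were taken from 5 lists, all of whose genes were tested. Among 9 other peptide precursors, Trh, which encodes thyrotropin-releasing hormone, was the only gene of the 5 lists that edgeR called over group means for kainate. DESeq2 called Trh, Chga, Sstr2, Pnoc and Crhbp higher and Cadps2 lower in neurons (adjusted p = 5.4e-10, 0.00302, 0.00335, 0.0517, 0.243 and 0.161), and Trh and Sstr3 higher in glia (adjusted p = 0.0698 and 0.225). Its level in neurons was 84.9 to 214 normalized CPM after kainate and 1.01 to 2.90 in sham, and in glia 12.3 to 35.1 after kainate and 0 and 3.87 in sham. The log2 fold change was 6.32 in neurons (SE 1.01, edgeR adjusted p = 0.0679) and 6.25 with the block (adjusted p = 1.6e-20). The neuronal call was lost without sham neurons library 2 or 3 (adjusted p = 0.714 and 0.482), at 6.27 and 6.76. In glia it was 3.40 (SE 1.06, adjusted p = 1) and 3.99 with the block (adjusted p = 1.4e-10). The glial value was 2.45 without sham glia library 1, the library at 0, and without library 3 no fold is given, since the sham glia library left was at 0. With the block, which called 3.19% of all genes higher and 1.9% lower in neurons and 2.93% and 2.86% in glia, Pnoc, the precursor of nociceptin, also rose in neurons, and the median of the 9 was 0.47 in neurons and 0.15 in glia.

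Of 5 other granins, Chga, which encodes chromogranin A, had the smallest p in both fractions. Chga was at 622 ± 108 normalized CPM in kainate neurons and 162 ± 104 in sham neurons (SD, n = 3 each), a log2 fold change of 1.95 (SE 0.47, edgeR adjusted p = 0.342) and of 2.11 with the block (adjusted p = 4.3e-10). In glia the change was 1.28 (SE 0.53, adjusted p = 1) and 1.14 with the block (adjusted p = 0.00732). Chgb, Scg3, Scg5 and Pcsk1n were not called in neurons, and Scg3 fell in glia with the block. The median of the 5 was 0.26 in neurons and -0.60 in glia.

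Among 6 peptide processing enzymes, Pcsk1, the prohormone convertase of dense core vesicles, had the smallest p in neurons, at 1.399 (SE 0.58, edgeR adjusted p = 1) and 1.57 with the block (adjusted p = 7.7e-07). Furin, a convertase of the Golgi, had the smallest in glia, at 0.70 (SE 0.42, adjusted p = 1) and 0.69 with the block (adjusted p = 0.103). With the block 3 enzymes rose in neurons (Pcsk1, Cpe and Furin), and in glia Furin rose and Qpct fell. The medians of the 6 were 0.36 and 0.10.

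Among 7 genes of dense core vesicle release, Cadps2, which primes vesicles for fusion, had the smallest p in neurons, at -1.05 (SE 0.35, edgeR adjusted p = 1) and -1.09 with the block (adjusted p = 0.000193). Baiap3 had the smallest in glia, at -0.80 (SE 0.45, adjusted p = 1) and -1.03 with the block (adjusted p = 0.0549). With the block Syt4 and Ptprn rose and Cadps2 and Baiap3 fell in neurons, while Syt4, Ptprn and Hid1 rose and Baiap3 fell in glia. The list thus held genes of both directions, and its median was 0.00 in neurons and 0.25 in glia.

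Among 21 receptors and binding proteins for the peptides of the 10 genes, the somatostatin receptor genes Sstr2 and Sstr3 had the smallest p in neurons and in glia, respectively. Sstr2 was at 107 ± 13 normalized CPM in kainate neurons and 22.7 ± 11.1 in sham neurons (SD, n = 3 each), a log2 fold change of 2.24 (SE 0.52, edgeR adjusted p = 0.294) and of 2.34 with the block (adjusted p = 3.3e-10). Sstr3 in glia differed by 1.92 (SE 0.63, adjusted p = 1) and rose by 1.70 with the block (adjusted p = 0.00121). With the block 5 of the 21 rose in neurons (Sstr2, Sstr3, Tacr1, Vipr1 and Crhbp) and Sstr4 fell, against 3.19% and 1.9% of all genes. In glia 4 rose (Sstr2, Sstr3, Tacr1 and Crhbp) and 3 fell (Sstr4, Ntsr2 and Sort1), against 2.93% and 2.86%. Sst itself, the ligand gene of Sstr2 and Sstr3, was not called, and the opioid receptor genes Oprd1, Oprm1 and Oprk1 were called in neither fraction. The medians of the 21 were 0.14 and 0.08. Genes of these lists with a call in the block fit alone were picked for naming once their values had been seen.

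The difference between neurons and glia was called for 0 genes of the 5 lists over group means. With the block within cell types, where 1.94% of all genes were called, it was called, as higher in neurons, for Scg3, Pcsk1, Qpct, Sstr2, Ntsr2 and Trh, with Trh at 2.27 (adjusted p = 0.0128) and Pcsk1 at 1.44 (adjusted p = 0.0311). With the pool as a block none of these 6 was called (adjusted p = 1 for each in edgeR), against 0.0221% of all genes, with Trh at 2.40 and Pcsk1 at 1.04.

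**Figure D4:**
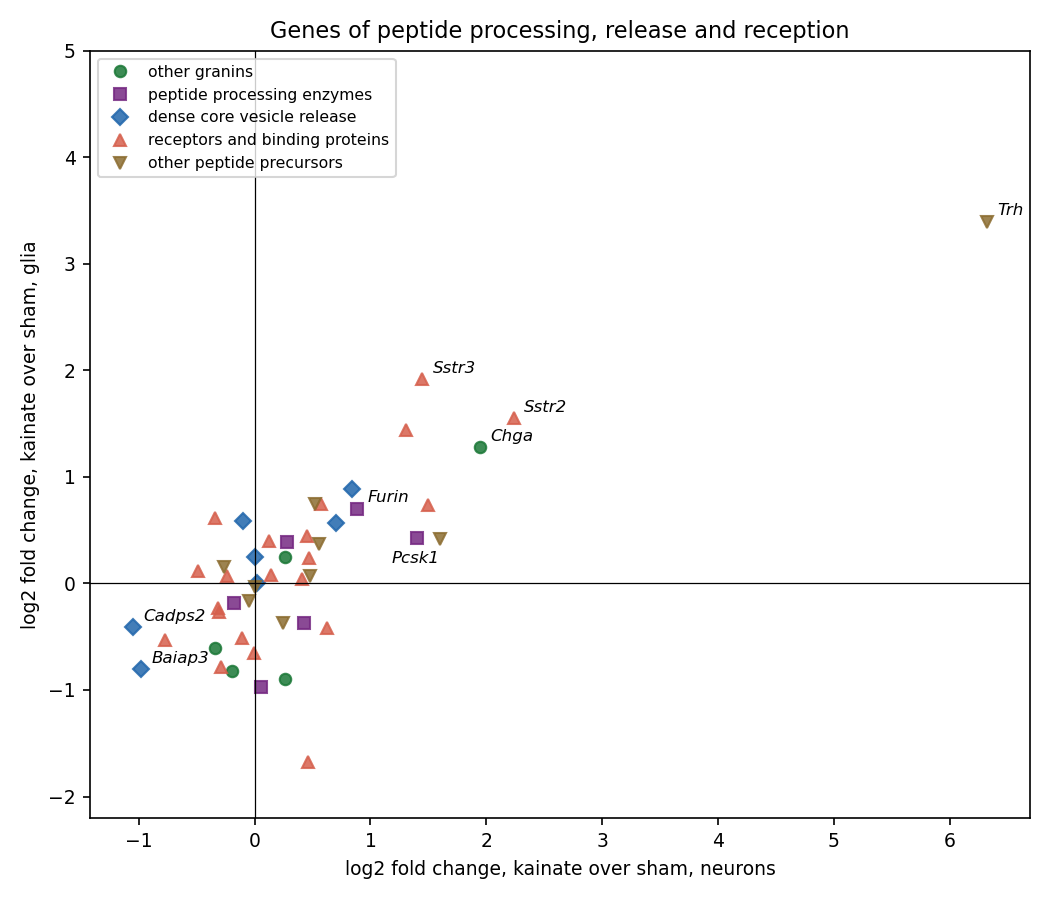
Log2 fold change of kainate over sham over group means, in neurons (horizontal axis) and glia (vertical axis), for the 48 genes of the 5 lists, with the symbol giving the list and labels on the genes named by rule. Trh lies apart at 6.32 and 3.40, and Chga, Sstr2, Sstr3 and the unlabelled Tacr1 lie above 1 on both axes.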

How the data were processed

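The authors used Trim Galore (0.4.3) for trimming, Rsubread for alignment to mm10 and featureCounts with GENCODE M16 to count unique alignments. The strand setting is not given in the sources used here. The deposited values are raw counts without molecular identifiers. Here 105 IDs lacking a symbol were dropped, and filterByExpr (minimum count 10, total 15) kept 40714. Counts were scaled by TMM and fitted with edgeR 4.0.16 (glmQLFit, legacy=TRUE; R 4.3.3) on the 4 group means, as 1 model of 11 libraries. Genes were called at FDR below 0.25 over all genes. SE is the log2 fold change over the square root of F. DESeq2 1.42.0 was an alternative. Coordinates and exon lengths are GENCODE M21 (GRCm38). The 11 bisulfite samples were not used.

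Deviations of same-numbered libraries from their group means correlated at r = 0.643, 0.161 and 0.491 in neurons and 0.76 and 0.787 in glia, across genes, which are not independent replicates. Since each was above 0.1, numbers were taken to pair kainate with sham pools, although no label says what they share. The pairing was thus read from the same counts, and no correlation between different numbers is given here as a control. In sham glia the deviations of the libraries mirror each other, so the glial values are not independent. Every kainate call with the replicate block rests on this pairing. Both fractions of 1 pool come from the same tissue.

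The 10 genes and the lists were chosen with earlier results of these data known. From the lists, genes called for kainate and the gene with the smallest p per list and fraction were named, and 3 similar genes for each of the 10. Alternatives covered scaling, filters, tool, fit, block, input and each library left out.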

Additional observations from a re-analysis of the deposited data

How the results depend on the processing

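The number of the 10 genes called higher after kainate in neurons was 0 over group means. It was 3 with DESeq2 (0.717% of all genes called higher), 2 with a separate fit per cell type (1.07%), 1 where 3 libraries had to reach a CPM of 1 (0.417%), 1 with edgeR's newer quasi-likelihood method (0.312%), 4 with the replicate block within each cell type (3.19%) and 4 without the pools numbered 1 (1.41%), against 0.157% over group means. In glia the 0 became 2 with DESeq2 (0.469%), 1 with the CPM filter (0.205%), 1 with the newer method (0.157%), 3 with the replicate block (2.93%) and 3 without the pools numbered 1 (0.954%), against 0.0933%. Leaving out each library gave 0 to 2 genes in neurons (0.0123% to 0.375% of all genes) and 0 to 1 in glia (0.00225% to 5.53%). The cause was not tested. After kainate, 5 of the 9 genes higher in neurons than in glia passed an FDR of 0.05, against 6.05% of all genes. No setting called any of the 10 lower, and none called their difference between fractions. Leave-one-out fits with 1 sham glia library assume that it varies like the other groups. The block changed no other count of the 10 genes by over 1.5 times. The number of pools limits the precision, and Crh and Nts rest on raw counts of 6 to 66 in glia.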
